A study of Mus musculus with 15 samples.

Results

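The genes described here carry the signals of prolactin, growth hormone and leptin from the cell surface to the nucleus, measured in sorted mouse pancreatic islet cells. They were taken by symbol from the deposited expression table. All 10 were found among its 38283 genes: the receptors Prlr, Ghr and Lepr, the kinase Jak2, the transcription factors Stat5a and Stat5b, and the inhibitors Cish, Socs1, Socs2 and Socs3. RNA was measured in alpha cells (n = 5) and beta cells (n = 4) of Glu-Venus mice, in which the proglucagon promoter drives the yellow fluorescent protein Venus. Alpha cells were sorted as Venus-positive, and beta cells as Venus-negative cells of high scatter and autofluorescence. Delta cells (n = 6) were taken from Sst-CreXROSA26EYFP/EYFP mice, in which Cre recombinase under the somatostatin promoter switches on the reporter EYFP. All mice were of the C57BL/6 strain and the labels name no treatment. Their age is not given in the sources used here. Each sample was a pool of islets from 2 to 5 mice by the methods of the study and up to 6 by a legend, so the spread between samples is one between pools, and the mouse line of delta cells cannot be told apart from their cell type in any comparison with the others.

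Prolactin, growth hormone and leptin act on class I cytokine receptors, which have no enzyme activity of their own. Hormone binding activates JAK2 on the receptor tail, and JAK2 phosphorylates the receptor and STAT proteins. For prolactin and growth hormone, STAT5A and STAT5B then move to the nucleus to switch on genes that include their own inhibitors, CIS and SOCS proteins. In beta cells, prolactin receptor signalling is known for the growth of the beta cell mass in pregnancy.

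Levels are given in FPKM, which divides a gene's fragments by its transcript length and the sample's mapped total, so levels of different genes can be set side by side. The hormone of each labelled cell type was highest in that cell type. Gcg was 184426 to 344947 FPKM in alpha cells, Ins2 91248.1 to 638871 FPKM in beta cells and Sst 101492 to 266276 FPKM in delta cells, with no overlap with the other cell types. Ppy, the hormone of a further islet cell type, was at 17727.7 to 41391.5 FPKM in alpha and 10856.8 to 48599.6 FPKM in delta cells, which overlapped, against 16.9 to 98.1 FPKM in beta cells. The table gives no read totals. The size of single reads could be read from the low values of 6 samples (7.4 M to 30.5 M reads), none of them beta cells, and the depth of the other 9 is unknown. The summed level of 85 ribosomal protein genes set apart 6 samples (65936 to 141332 FPKM, alpha replicates 1 to 3, beta replicate 2, delta replicates 1 and 2) from the other 9 (8171 to 38995 FPKM). Means within these sets are given for Prlr, Ghr and Cdkn2c alone. Other genes differed between the sets too, such as Cish in delta cells, at 3.45 (n = 2) and 10.9 FPKM (n = 4). Of other pancreatic cells, 10 acinar markers summed to 8.17 to 86.6 FPKM in alpha, 0.05 to 13.7 in beta and 90.9 to 609 in delta cells. The sums of 5 duct markers were 25.4 to 172, 8.56 to 24.7 and 20.4 to 101 FPKM in the same order, those of 7 endothelial markers were at most 6.17 FPKM, and those of 9 immune markers at most 17.3 FPKM. Sums of 7 fibroblast and stellate markers were at most 3.81 FPKM, with Col1a1 and Pdgfra at 0 in every sample. The part of these cells in the results was not tested. In sorted bulk samples, fewer cells that express a gene and less RNA per cell cannot be told apart.

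Prlr and Ghr set the cell types apart, and no other member passed the test. Prlr was high in beta cells and low in both other cell types, whereas Ghr was present in all of them, higher in beta and delta than in alpha cells. Differences in log2(FPKM + 1) were tested with limma, a linear model that shares information on variance between genes, in 1 fit of all 15 samples. It covered the 14405 genes with a mean above 1 FPKM in at least 1 cell type, with Benjamini-Hochberg adjustment over all of them and a call at an adjusted p under 0.05. The filter kept 8 of the 10 members and left out Lepr and Socs1. Between beta and alpha cells 2 of the 8 were called, both higher in beta cells, where 7.66% of all tested genes were called, 2.84% higher and 4.82% lower. Between delta and alpha cells 1 of the 8, Ghr, was called higher in delta cells (all genes: 6.81% called, 5.33% higher, 1.48% lower). Between delta and beta cells 1 of the 8, Prlr, was called lower in delta cells (all genes: 14.7% called, 11.7% higher, 2.99% lower). The samples did not overlap for the same genes: Prlr and Ghr in beta against alpha cells (8.12% of all genes), Ghr in delta against alpha cells (6.64%) and Prlr in delta against beta cells (14.9%). A count of 1 in 8 is near these shares, and counts this small are read for the genes they name and not as a result on the group as a whole. The median difference over the 8 was 1.02 on the log2 scale for beta against alpha cells (all genes -0.13), 0.68 for delta against alpha cells (all genes 0.13) and -0.06 for delta against beta cells (all genes 0.30).

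**Figure D1:**
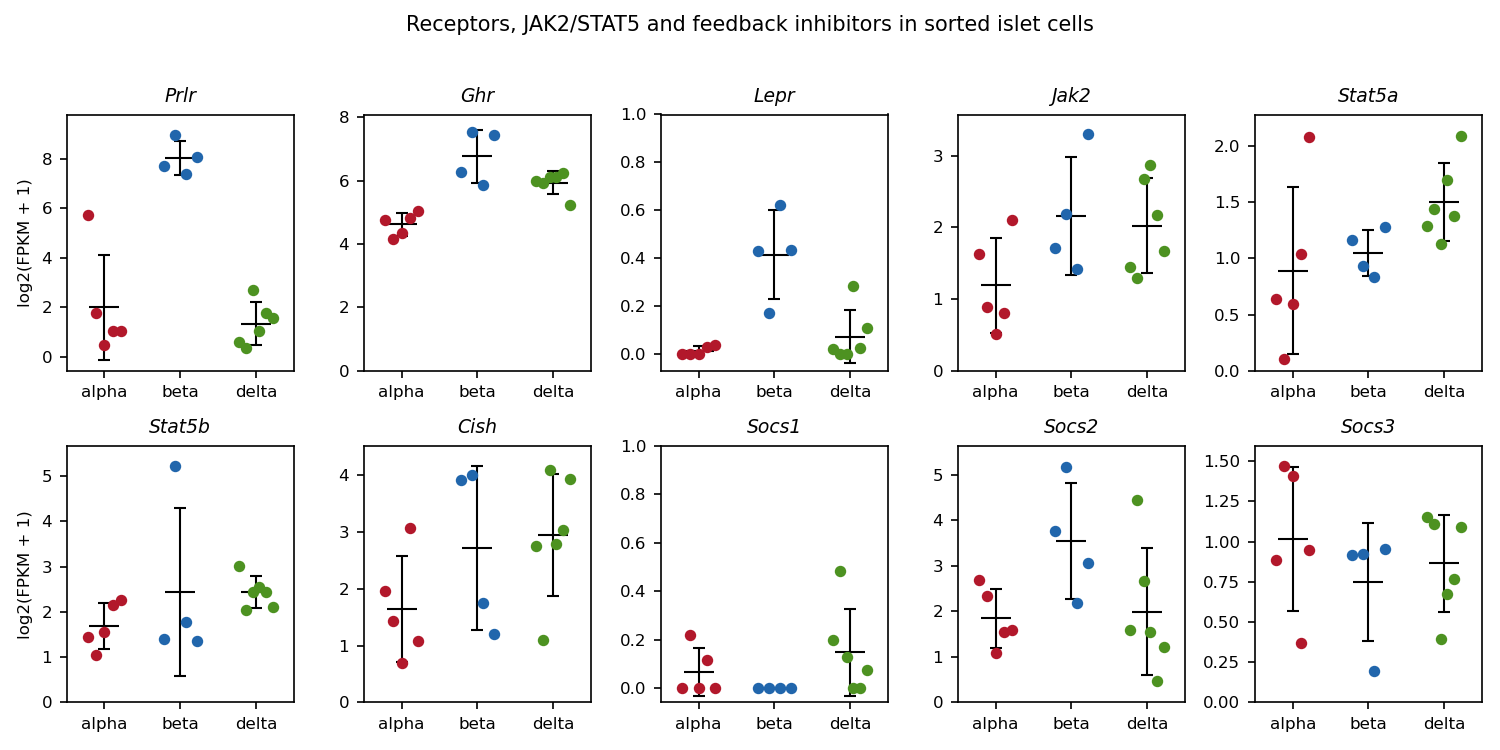
Level of each of the 10 genes as log2(FPKM + 1), 1 point per sample, for alpha (n = 5), beta (n = 4) and delta cells (n = 6). Bars show the mean and 1 SD of the log2 values, and the y axis differs between panels. The 4 beta samples lie above all others for Prlr, the 5 alpha samples lie below all others for Ghr, and Lepr and Socs1 stay under 1 on this axis in every sample.

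Prlr encodes the prolactin receptor, which also binds placental lactogens. The gene (ENSMUSG00000005268) lies on the + strand of GRCm38 at chr15:10177238-10349180, with 12 annotated transcripts and a longest protein of 608 residues. The table gives 1 value for each gene, so long and short receptor forms are not separated. In beta replicates 1 to 4, Prlr was at 207, 492, 165 and 264 FPKM. In alpha replicates 1 to 5 it was at 51.3, 2.42, 0.38, 1.08 and 1.07 FPKM, and in delta replicates 1 to 6 at 0.528, 0.294, 5.56, 1.04, 2.41 and 1.96 FPKM. Every beta sample was above every alpha and delta sample, alpha replicate 1 stood between beta cells and the rest, and the other alpha samples overlapped the delta samples.

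The mean level of Prlr was 282 ± 146 FPKM (SD, n = 4) in beta cells, which placed it 190th of all genes by mean there. It was 11.2 ± 22.4 FPKM (n = 5) in alpha and 1.96 ± 1.94 FPKM (n = 6) in delta cells, or 1.25 ± 0.913 FPKM (n = 5) without delta replicate 3. Beta cells exceeded alpha cells by 6.01 on the log2(FPKM + 1) scale (SE 0.839, 95% interval 4.23 to 7.79, limma adjusted p = 0.000233). Delta cells were below beta cells by a difference of -6.68 (SE 0.808, 95% interval -8.39 to -4.96, limma adjusted p = 3.83e-05). Both calls held with any 1 of the 15 samples left out. With alpha and beta replicates 1 to 4 alone and the replicate number as a block, no gene was called between beta and alpha cells, Prlr included (limma adjusted p = 0.123). Alpha and delta cells, the lower neighbours in the order, did not differ beyond their spread (delta against alpha cells -0.67, 95% interval -2.27 to 0.94, limma adjusted p = 0.732). The log2 ratio of the mean FPKM, to which the high alpha sample adds most, was 4.65 for beta over alpha cells and -7.17 for delta over beta cells.

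Alpha replicate 1 decided the mean of Prlr in alpha cells. Without it the mean was 1.24 ± 0.855 FPKM (n = 4), the difference of beta against alpha cells became 6.93 (limma adjusted p = 1.8e-06), and that of delta against alpha cells became 0.26 (limma adjusted p = 0.878). A total of 227 tested genes were called higher in beta than in both alpha and delta cells. Among them, alpha replicate 1 was the highest alpha sample in 48, and the median of its log2(FPKM + 1) less the median of the other alpha samples was 0.00. For Prlr that difference was 4.66, the largest of the 227 on this scale, which compresses the differences of low genes. Ins2 and Ins1 were highest in the same sample among alpha cells, at 9094 and 3583 FPKM against lowest values of 2634 and 1033 FPKM. The 227 genes were called with alpha replicate 1 in the fit, so genes of beta cells that were high in it could miss the call. The source of the high Prlr value was not tested. Within the samples of high ribosomal protein level the mean of Prlr was 492 FPKM in beta cells (n = 1), 18.0 in alpha cells (n = 3) and 0.411 in delta cells (n = 2), and within the others 212 (n = 3), 1.07 (n = 2) and 2.74 FPKM (n = 4). The order of beta cells above both others was thus present in each set. A protein-coding gene, Gm21973, overlaps Prlr on the same strand and was at 0 to 7.38 FPKM in beta cells, at most 2.57 in alpha and 1.89 in delta cells.

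Ghr encodes the growth hormone receptor, whose liver form drives the production of insulin-like growth factor. The gene (ENSMUSG00000055737) lies on the - strand at chr15:3317760-3583492, with 10 transcripts and a longest protein of 650 residues. In alpha replicates 1 to 5, Ghr was at 26.1, 16.8, 19.3, 27.4 and 32.0 FPKM. In beta replicates 1 to 4 it was at 76.0, 183, 57.3 and 171 FPKM, and in delta replicates 1 to 6 at 62.9, 59.8, 68.8, 67.6, 74.5 and 36.2 FPKM. All beta and delta samples were above all alpha samples, while the beta and delta samples overlapped.

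Mean levels of Ghr were 122 ± 64.4 FPKM (n = 4) in beta, 61.7 ± 13.4 FPKM (n = 6) in delta and 24.3 ± 6.19 FPKM (n = 5) in alpha cells. Beta cells exceeded alpha cells by 2.14 on the log2 scale (SE 0.408, 95% interval 1.28 to 3.01, limma adjusted p = 0.00373), and this call held with any 1 sample left out. It was lost with alpha and beta replicates 1 to 4 alone and the replicate number as a block (limma adjusted p = 0.13), where no gene was called. Delta cells exceeded alpha cells by 1.31 (SE 0.368, 95% interval 0.53 to 2.09, limma adjusted p = 0.0419). This second call was close to the threshold. It was lost when any 1 of alpha replicates 1 to 3 or delta replicates 1 to 5 was left out (adjusted p up to 0.096), although the samples did not overlap. Over all 15 fits that left out 1 sample, the difference ranged from 1.19 to 1.45. The difference between beta and delta cells did not pass the test in this fit (delta against beta cells -0.84, 95% interval -1.67 to 0.00, unadjusted p = 0.049, limma adjusted p = 0.174). After median-ratio scaling of the samples the same difference was -1.25 (limma adjusted p = 0.00413) and after quantile normalization -0.92 (limma adjusted p = 0.0461). The means of delta cells in the samples of high and low ribosomal protein level were nearly equal, at 61.4 (n = 2) and 61.8 FPKM (n = 4), those of alpha cells 20.8 (n = 3) and 29.7 (n = 2), and those of beta cells 183 (n = 1) and 102 FPKM (n = 3).

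Because FPKM is scaled by length, the levels of both receptors could be compared within a sample. Prlr exceeded Ghr in each of the 4 beta samples, with a ratio of the Prlr to the Ghr level of 1.54 to 2.89 (median 2.71). In delta cells the ratio was 0.00492 to 0.0807 in 6 of 6 samples (median 0.0238). In alpha cells it was below 1 in 4 samples and 1.97 in replicate 1 (median 0.0392). Ghr was therefore the more abundant receptor RNA in delta cells and in 4 of the 5 alpha samples, and Prlr in beta cells.

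**Figure D2:**
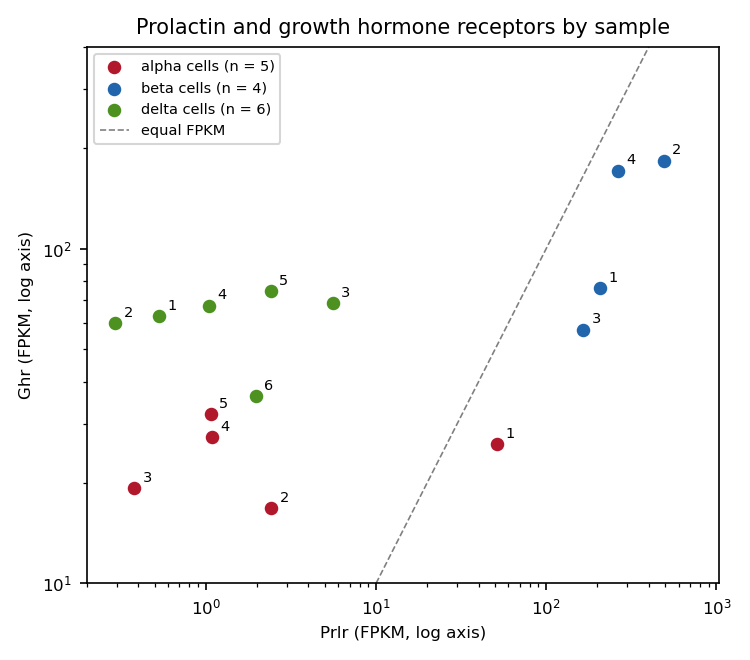
Ghr level against Prlr level in each sample (FPKM, both axes on a log scale), with the replicate number beside each point and a dashed line where both levels are equal. The 4 beta samples and alpha replicate 1 lie to the right of the line, and the 6 delta samples lie to its left between 36.2 and 74.5 FPKM of Ghr.

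By a fixed rule, the 3 tested genes with the highest Pearson correlation to each receptor over the 15 samples on the log2(FPKM + 1) scale were listed. For Prlr these were Galr1 (a galanin receptor, r = 0.955), Sec16b (0.955) and Car10 (0.946). Their mean levels in alpha, beta and delta cells were 0.38, 7.21 and 0.114 FPKM for Galr1, 0.208, 1.04 and 0.0262 for Sec16b, and 0.331, 24.2 and 0.489 for Car10. The choice by correlation with Prlr fixes that these genes are high where it is high, alpha replicate 1 included (1.06, 0.781 and 0.996 FPKM). For Ghr they were Casc4 (r = 0.97), Atp8a1 (0.945) and Lsm12 (0.941). Mean levels in alpha, beta and delta cells were 13.5, 106 and 38.5 FPKM for Casc4, 1.25, 9.94 and 3.5 for Atp8a1, and 6.81, 23.8 and 11.8 for Lsm12. The 15 points fall into 3 cell types and share libraries, and these correlations are a description of them alone.

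Lepr, the leptin receptor gene (ENSMUSG00000057722; chr4:101717404-101815352, + strand), was near 0 in all cell types. It was at 0.348, 0.125, 0.540 and 0.353 FPKM in beta replicates 1 to 4, and listed at 0 in 3 of the 5 alpha samples with 0.0217 and 0.0251 FPKM in the other two. Delta replicates 1 to 6 were at 0.0147, 0, 0, 0.216, 0.0165 and 0.0795 FPKM. The beta samples were all above the alpha samples, and the beta and delta samples overlapped. Means were 0.341 ± 0.169 FPKM (n = 4) in beta, 0.00936 ± 0.0129 (n = 5) in alpha and 0.0544 ± 0.0843 (n = 6) in delta cells. Lepr was below the filter. In a fit with no filter, beta cells exceeded alpha cells by 0.40 (limma adjusted p = 0.00806) and delta cells differed from beta cells by -0.34 (limma adjusted p = 0.00913), on a scale where the pseudocount of 1 is larger than every Lepr value. The hormone genes themselves, Prl, Gh and Lep, were listed at 0 in all 15 samples.

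Jak2 encodes the kinase that all of these receptors use (ENSMUSG00000024789; chr19:29251828-29313080, + strand). Its level was low and did not set the cell types apart. Means were 1.49 ± 1.21 FPKM (0.424 to 3.32, n = 5) in alpha, 4.09 ± 3.26 (1.68 to 8.84, n = 4) in beta and 3.44 ± 2.04 (1.45 to 6.35, n = 6) in delta cells, with overlap between every pair of cell types. Without beta replicate 4 the mean of beta cells was 2.51 ± 0.962 FPKM (n = 3). The largest of its differences was 0.96 between beta and alpha cells (SE 0.462, 95% interval -0.01 to 1.94, limma adjusted p = 0.225).

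Stat5a and Stat5b are neighbouring genes on chromosome 11 that encode closely related STAT proteins, at chr11:100859351-100885169 on the + strand (ENSMUSG00000004043) and at chr11:100780731-100850724 on the - strand (ENSMUSG00000020919). Reads from stretches they share may have been split between them. Stat5a was at 1.08 ± 1.25 FPKM (n = 5) in alpha, 1.09 ± 0.295 (n = 4) in beta and 1.90 ± 0.756 (n = 6) in delta cells, and its samples overlapped in all comparisons. Its difference of delta against alpha cells was 0.61 (limma adjusted p = 0.378). Without alpha replicate 5 (3.22 FPKM) the alpha mean was 0.547 ± 0.4 FPKM (n = 4), and the difference was 0.91 (limma adjusted p = 0.0399). Stat5b was at 1.74, 1.07, 1.94, 3.41 and 3.76 FPKM in alpha replicates 1 to 5, at 1.66, 36.1, 2.41 and 1.56 FPKM in beta replicates 1 to 4, and at 7.12, 3.13, 4.43, 4.87, 4.41 and 3.31 FPKM in delta replicates 1 to 6. One beta sample was far above all others, and the other 3 lay within the range of alpha cells.

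The mean of Stat5b in beta cells was 10.4 ± 17.1 FPKM (n = 4) and fell to 1.88 ± 0.467 FPKM (n = 3) without beta replicate 2, the only beta sample of high ribosomal protein level. Means were 2.38 ± 1.15 FPKM (n = 5) in alpha and 4.54 ± 1.43 (n = 6) in delta cells. No Stat5b difference passed the test: 0.75 for beta against alpha cells (95% interval -0.57 to 2.06, limma adjusted p = 0.501), 0.74 for delta against alpha cells (limma adjusted p = 0.583) and 0.00 for delta against beta cells (95% interval -1.27 to 1.26). Without beta replicate 2 these differences were -0.18 (limma adjusted p = 0.772), 0.74 (0.135) and 0.92 (0.0573), none past the threshold, and all delta samples (at least 3.13 FPKM) were above the other beta samples (at most 2.41 FPKM). Stat5b exceeded Stat5a in all 15 samples, with median ratios of 3.25 in alpha, 2.22 in beta and 2.47 in delta cells. The lowest ratio was 1.01, in a delta sample. The Stat5a gene overlaps Stat3 on the opposite strand, which was at 7.18 to 37.1 FPKM over all samples, and whether the counting used strand is not given in the sources used here.

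Cish encodes CIS, an inhibitor that STAT5 induces and that occupies phosphorylated receptor tails (ENSMUSG00000032578; chr9:107296026-107302784, + strand). It was at 2.88, 1.69, 0.618, 7.47 and 1.11 FPKM in alpha replicates 1 to 5, at 14.1, 15.1, 2.38 and 1.32 FPKM in beta replicates 1 to 4, and at 5.75, 1.15, 16.1, 5.89, 7.19 and 14.3 FPKM in delta replicates 1 to 6. Each cell type held both low and high samples, and all 3 overlapped. Means were 2.75 ± 2.77 FPKM (n = 5), 8.21 ± 7.37 (n = 4) and 8.39 ± 5.67 (n = 6) in alpha, beta and delta cells, and the alpha mean was 1.58 ± 0.972 FPKM (n = 4) without alpha replicate 4. The differences did not pass the test (beta against alpha cells 1.08, 95% interval -0.40 to 2.55, limma adjusted p = 0.377; delta against alpha cells 1.30, 95% interval -0.03 to 2.63, limma adjusted p = 0.312). An antisense gene, Gm17041, overlaps Cish and was at 0.447 to 27.2 FPKM over all samples, so reads of both may not be told apart.

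Socs2 encodes the chief inhibitor of growth hormone receptor signalling (ENSMUSG00000020027; chr10:95385362-95417180, - strand). It was at 12.5, 35.1, 3.52 and 7.31 FPKM in beta replicates 1 to 4 and at 5.40, 4.05, 1.11, 1.93 and 2.02 FPKM in alpha replicates 1 to 5. Delta replicates 1 to 6 were at 1.99, 20.8, 5.35, 1.93, 0.388 and 1.33 FPKM. The mean was higher in beta cells, at 14.6 ± 14.1 FPKM (n = 4) against 2.91 ± 1.77 (n = 5) in alpha and 5.30 ± 7.79 (n = 6) in delta cells, but the samples overlapped. Beta cells were above alpha cells by 1.69 (SE 0.711, 95% interval 0.18 to 3.20, unadjusted p = 0.0302, limma adjusted p = 0.163). With the set of ribosomal protein level as a covariate this difference was 2.14 and passed (limma adjusted p = 0.0428). Delta cells were below beta cells by a difference of -1.55 (SE 0.684, 95% interval -3.00 to -0.10, limma adjusted p = 0.147). Without delta replicate 2, the mean of delta cells was 2.2 ± 1.88 FPKM (n = 5), and the latter difference was -2.04 (limma adjusted p = 0.0276). Without beta replicate 2, the mean of beta cells was 7.77 FPKM (n = 3), and the difference was -1.01 (limma adjusted p = 0.346). Over the fits that left out 1 sample it ranged between these values, and it passed only in the fit without delta replicate 2. It also passed after median-ratio scaling (-1.87, limma adjusted p = 0.038) and after quantile normalization (-1.92, limma adjusted p = 0.0367).

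Socs1 and Socs3 were low everywhere. Socs1, an inhibitor of JAK kinases (ENSMUSG00000038037; chr16:10782240-10785536, - strand), was listed at 0 in all 4 beta samples, in 3 of 5 alpha samples and in 2 of 6 delta samples, with a highest value of 0.397 FPKM, and was below the filter. Socs3, which acts on the leptin receptor and on receptors of the interleukin-6 family (ENSMUSG00000053113; chr11:117966079-117970047, - strand), was at 1.10 ± 0.613 FPKM (n = 5) in alpha, 0.718 ± 0.381 (n = 4) in beta and 0.854 ± 0.371 (n = 6) in delta cells. Its differences were between -0.27 and 0.12 on the log2 scale, and none passed the test (limma adjusted p = 0.645 for the difference farthest from 0). Cish and Socs2 are both known targets of STAT5. The ratio of the Cish to the Socs2 level was 0.418 to 3.87 (median 0.551) in alpha, 0.181 to 1.13 (median 0.554) in beta and 0.0555 to 18.5 (median 3.03) in delta cells. The range of delta cells held those of both others, with 5 of 6 delta samples, 1 of 5 alpha samples and 1 of 4 beta samples above 1. The difference in this ratio was not tested.

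**Figure D3:**
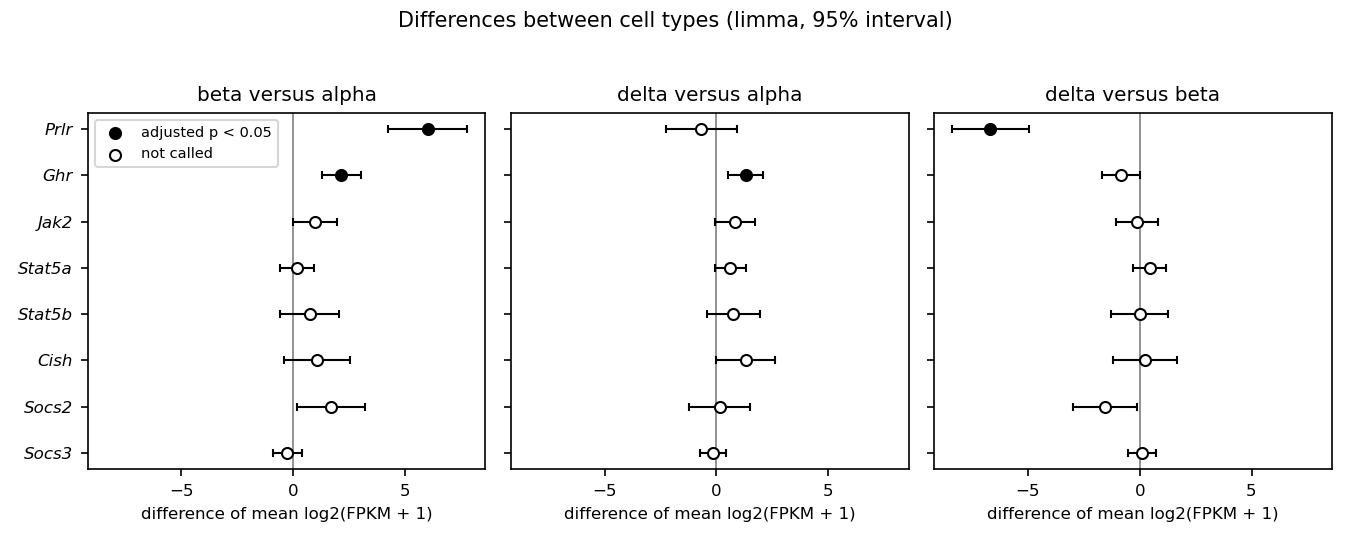
Difference between cell types in mean log2(FPKM + 1) for the 8 members tested (limma, bars are 95% intervals), for beta against alpha, delta against alpha and delta against beta cells. Filled points, with an adjusted p under 0.05, are Prlr and Ghr for beta against alpha cells, Ghr alone for delta against alpha cells and Prlr alone for delta against beta cells.

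STAT5 binds the sequence TTCNNNGAA, which reads the same on both strands. The members' promoters in RefSeq (GRCm38.p6), from 250 bases before to 50 after each annotated start, were searched for it. Of the 10 genes, 9 matched the promoter table, with 15 promoters, and Socs2 had no entry. The motif was in 3 of the 15, 1 each of Cish, Prlr and Socs3. Of all 32851 promoters listed, 8.3% held it, and among the 11285 promoters of tested genes 6.78%. The Cish promoter (chr9:107296409-107296708, + strand) held it 2 times, beginning at 0 (the start itself) and 11 bases after it, and 0.457% of all promoters held it 2 or more times. One of the 3 Prlr promoters (chr15:10223656-10223955, + strand) held it at position -110 from the start, and the Socs3 promoter (chr11:117969317-117969616, - strand) at -154. The sequences are shown as the places where members of the pathway carry the letters that their own transcription factor reads, 5′ to 3′ on the strand of the gene, with the motif in capitals. A match is a description of the sequence and not a binding site measured here.
Cish: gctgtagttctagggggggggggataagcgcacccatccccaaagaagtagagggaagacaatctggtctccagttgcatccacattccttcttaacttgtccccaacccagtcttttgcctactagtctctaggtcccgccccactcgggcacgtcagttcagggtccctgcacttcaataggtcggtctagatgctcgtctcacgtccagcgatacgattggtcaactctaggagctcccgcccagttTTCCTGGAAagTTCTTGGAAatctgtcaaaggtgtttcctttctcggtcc
Prlr: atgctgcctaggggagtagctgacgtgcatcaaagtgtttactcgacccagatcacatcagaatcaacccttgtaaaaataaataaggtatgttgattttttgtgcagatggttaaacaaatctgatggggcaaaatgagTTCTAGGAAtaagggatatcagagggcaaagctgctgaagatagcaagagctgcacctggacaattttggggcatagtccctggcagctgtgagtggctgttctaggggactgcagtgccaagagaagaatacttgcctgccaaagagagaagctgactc
Socs3: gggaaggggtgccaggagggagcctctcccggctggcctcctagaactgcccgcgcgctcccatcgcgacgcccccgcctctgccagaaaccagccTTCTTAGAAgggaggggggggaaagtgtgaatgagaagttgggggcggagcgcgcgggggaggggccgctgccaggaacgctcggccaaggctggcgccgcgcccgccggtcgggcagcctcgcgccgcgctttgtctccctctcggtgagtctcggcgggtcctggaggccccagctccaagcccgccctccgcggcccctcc

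Other genes of the pathway were taken from a list of 55 (ligands, other cytokine receptors, JAK, STAT and SOCS genes, phosphatases, PIAS proteins and adaptors), of which 40 passed the filter. In beta against alpha cells 3 were called higher (2.84% of all genes) and 3 lower (4.82%). In delta against beta cells 3 were called higher (11.7%) and 1 lower (2.99%). In delta against alpha cells limma called 0 (all genes: 5.33% higher, 1.48% lower). At an unadjusted p under 0.05 there were 4, and the share of all genes at that threshold was not computed. Median differences of the 40 were 0.12, 0.19 and 0.23 in the same order of comparisons. The called genes were a cytokine receptor, docking proteins and subunits of the lipid kinase PI3K. None of the JAK, STAT and SOCS genes tested was called. Jak3, Tyk2 and Stat4 were below the filter. In a fit with no filter, the level of Jak3, a JAK of lymphocyte receptors that is named after its values were seen, in delta cells exceeded that in beta cells by 0.62 (limma adjusted p = 0.00665), at 0.371 to 1.12 FPKM against 0.0466 to 0.131 FPKM.

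Lifr, the leukaemia inhibitory factor receptor, was at 19.3 ± 10.9 FPKM (n = 4) in beta, 4.70 ± 2.42 (n = 5) in alpha and 1.33 ± 0.798 (n = 6) in delta cells. It was lower in delta than in beta cells by a difference of -2.97 (SE 0.448, limma adjusted p = 0.000309), with all delta samples (at most 2.1 FPKM) below all beta samples (at least 5.27 FPKM). For beta against alpha cells the difference was 1.70 (SE 0.465, limma adjusted p = 0.0357), a call that was lost without any 1 of alpha replicates 1 to 4 or beta replicates 1, 2 and 4 (adjusted p up to 0.125), without alpha replicate 1 and beta replicate 2 together (0.0939) and with a pseudocount of 0.1 (0.0638). Sh2b1 and Gab1 differed in the opposite direction. Sh2b1, a partner of JAK2, was at 0.777 ± 0.0673 FPKM in beta against 2.52 ± 0.557 in alpha and 3.03 ± 0.188 in delta cells (beta against alpha cells -0.97, SE 0.226, limma adjusted p = 0.0152; delta against beta cells 1.18, SE 0.218, limma adjusted p = 0.00159). Gab1, a docking protein, was at 0.441 ± 0.503 FPKM in beta against 5.09 ± 2.55 in alpha and 5.98 ± 2.08 in delta cells (-2.02, SE 0.386, limma adjusted p = 0.00381; 2.28, SE 0.371, limma adjusted p = 6e-04). Beta cells were lowest for both, Gab1 being at 0.207 ± 0.224 FPKM (n = 3) there without beta replicate 2, and these 4 calls held with any 1 sample left out.

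Irs2, a docking protein of the insulin receptor, was likewise lowest in beta cells, at 0.819 ± 0.234 FPKM against 3.74 ± 1.92 in alpha and 3.41 ± 1.30 in delta cells. Its difference between beta and alpha cells was -1.29 (limma adjusted p = 0.038), lost without any 1 of alpha replicates 1, 4 and 5, beta replicates 1, 3 and 4 or delta replicate 4 (adjusted p up to 0.104), and after median-ratio scaling (0.0625). Between delta and beta cells it was 1.22 (limma adjusted p = 0.0256), lost without any 1 of beta replicate 4 and delta replicates 3 and 5 (adjusted p up to 0.0732), and after median-ratio scaling (0.096) or quantile normalization (0.111). Pik3r1 and Pik3ca, the regulatory and catalytic subunits of PI3K, were at 10.6 ± 6.24 and 7.46 ± 4.91 FPKM in beta, 2.51 ± 1.98 and 1.88 ± 1.59 in alpha, and 6.59 ± 3.11 and 2.65 ± 1.07 in delta cells. Without alpha replicate 5 the alpha mean of Pik3ca was 1.18 ± 0.362 FPKM (n = 4). Both calls were for higher levels in beta cells, with differences from alpha cells of 1.71 (limma adjusted p = 0.0396) and 1.49 (limma adjusted p = 0.0496). Neither call held up when single samples were left out. The Pik3r1 call was lost without any 1 of alpha replicates 1 to 4, beta replicates 1, 2 and 4 or delta replicates 3, 4 and 6 (adjusted p up to 0.136). The Pik3ca call was lost without any 1 of the same alpha and beta replicates or of the 6 delta replicates (adjusted p up to 0.168).

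**Figure D4:**
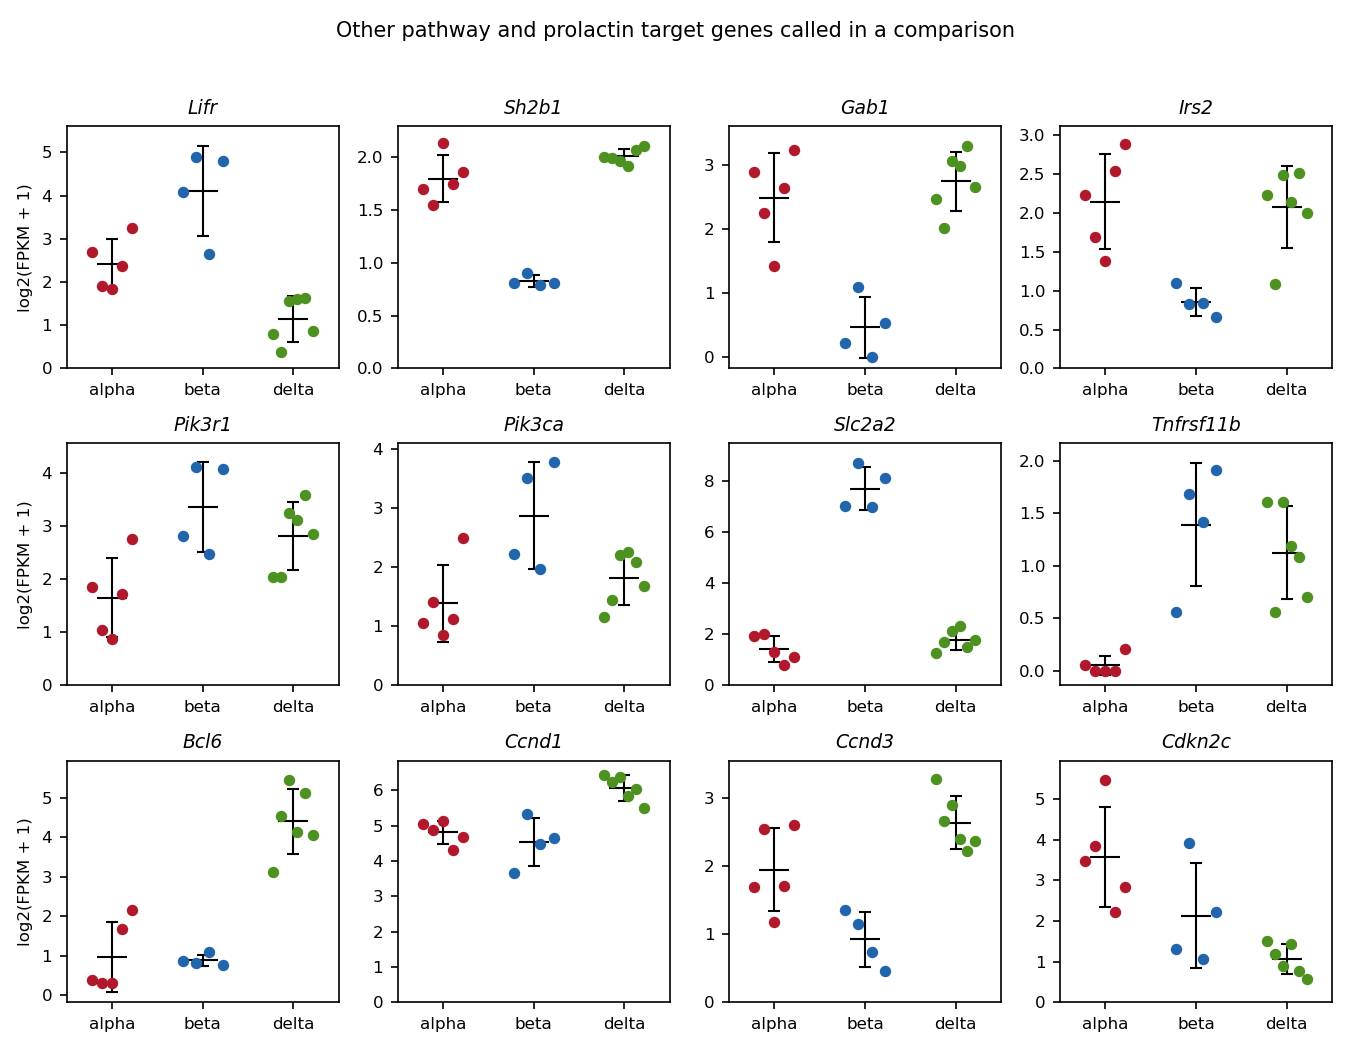
Level as log2(FPKM + 1) of the 6 other pathway genes and 6 prolactin target genes called in at least 1 comparison, 1 point per sample, with the mean and 1 SD of the log2 values. The y axis differs between panels. Beta cells are highest for Lifr and Slc2a2 and lowest for Sh2b1 and Gab1, and delta cells are highest for Bcl6 and Ccnd1.

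A list of 16 genes known as targets of prolactin in beta cells had 12 that passed the filter. In beta against alpha cells 2 were called, both higher (2.84% of all genes), although the median difference of the 12 was -0.18. In delta against alpha cells 3 were called higher (5.33%) and 1 lower (1.48%), with a median of 0.59, and in delta against beta cells 3 higher (11.7%) and 1 lower (2.99%), with a median of 0.15. The list holds genes that prolactin is known to raise and others that it is known to lower, so its median has no expected direction.

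Slc2a2, the glucose transporter GLUT2, was at 236 ± 139 FPKM in beta, 1.84 ± 1.00 in alpha and 2.53 ± 0.962 in delta cells (beta against alpha cells 6.27, SE 0.408, limma adjusted p = 1.32e-07; delta against beta cells -5.93, SE 0.392, limma adjusted p = 9.78e-08). It was high in beta cells alone, as Prlr was but for alpha replicate 1, where Prlr was at 51.3 and Slc2a2 at 2.81 FPKM. Tnfrsf11b, which encodes osteoprotegerin, was at 1.78 ± 0.973 FPKM in beta and 1.27 ± 0.678 in delta cells against 0.0400 ± 0.0684 in alpha cells, with no overlap of alpha samples with either. It was called higher in beta (1.34, limma adjusted p = 0.0194; 0.0521 without beta replicate 4) and in delta cells (1.07, limma adjusted p = 0.0348). The latter call was lost without any 1 of alpha replicates 1 to 4 or delta replicates 1 and 3 (adjusted p up to 0.0601), and after quantile normalization (0.0775).

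Bcl6, a transcriptional repressor that STAT5 lowers in other tissues, was at 23.1 ± 12.9 FPKM (n = 6) in delta cells against 1.29 ± 1.49 (n = 5) in alpha and 0.851 ± 0.188 (n = 4) in beta cells. Every delta sample (7.72 to 42.7 FPKM) was above every other sample, and without alpha replicate 5 the alpha mean was 0.746 ± 0.971 FPKM (n = 4). Delta cells exceeded alpha cells by 3.44 (SE 0.438, limma adjusted p = 7.43e-05) and beta cells by 3.52 (SE 0.467, limma adjusted p = 9.27e-05). The D cyclin Ccnd1, a driver of the cell cycle, was at 67.6 ± 15.9 FPKM in delta, 27.6 ± 6.08 in alpha and 24.0 ± 11.3 in beta cells. It exceeded beta cells by 1.54 (SE 0.359, limma adjusted p = 0.00849) and alpha cells by 1.26 (SE 0.337, limma adjusted p = 0.0311), the latter lost without any 1 of alpha replicate 4 and delta replicates 1 and 3 (adjusted p up to 0.06). Ccnd3, another D cyclin, was at 5.43 ± 1.88 FPKM in delta and 0.963 ± 0.539 in beta cells (1.71, SE 0.338, limma adjusted p = 0.00273). The cell cycle inhibitor Cdkn2c moved the other way, at 1.16 ± 0.557 FPKM in delta and 15.3 ± 16.1 in alpha cells (-2.50, SE 0.554, limma adjusted p = 0.00924). Alpha replicate 3, at 43.4 FPKM, raised that mean, which was 8.33 ± 4.29 FPKM (n = 4) without it. All delta samples of Cdkn2c were below all alpha samples, and its mean in alpha cells was 22.3 FPKM in the samples of high ribosomal protein level (n = 3) and 4.9 in the others (n = 2).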

How the data were processed

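RNA of 15 sorted samples was amplified and read as single ends of 50 nt. Alignment by the authors was to GRCm38 with TopHat (2.0.11 in the methods, TopHat2 2.0.8 in the submitters' processing notes) and Cufflinks 2.2.1 gave the deposited FPKM of each gene; the annotation release is not given in the sources used here. They used edgeR on raw counts, which were not used here, so limma 3.58.1 in R 4.3.3 (lmFit, eBayes with a trend) was run on log2(FPKM + 1), which understates the changes of low genes. No term was fitted beside cell type, and the fit was tested on simulated data. Python 3.11.15, numpy 2.4.6 and pandas 2.3.3 were used for the rest.

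Members and gene lists were chosen with earlier results of these data known. Named genes were all members, every listed pathway or target gene called in a comparison, the 3 genes most correlated with each receptor above 1 FPKM, and marker hormones. Jak1, Jak3, Leprot, Tph1, Tph2, Ccnd2 and the markers of other cells at 0 were named after their values were seen. Read steps were searched in 5024 genes with 20 jittered copies. Intervals cover the spread between samples. The limit between sets of ribosomal protein level was 50000 FPKM. Annotation was GENCODE M21. The promoter of Socs2 was not in the table used, and protein sequences were not used here. Alternatives were other filters (0.5 FPKM, 5 FPKM or none), a pseudocount of 0.1, fits of only the cell types compared, replicate blocks, 2 scalings, the sample set as a covariate and leaving out each sample. A fit without alpha replicate 1 and beta replicate 2 together was chosen after seeing the data.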

Additional observations from a re-analysis of the deposited data

Results flagged for a closer look

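In 29 groups of samples of the members, 4 samples lay far from the rest of their group by Dixon's test, where chance gives about 1.4. Prlr was at 51.3 FPKM in alpha replicate 1, where the other alpha samples were at 0.38 to 2.42 FPKM. Stat5b was at 36.1 FPKM in beta replicate 2, where the other beta samples were at 1.56 to 2.41 FPKM. Ghr was at 36.2 FPKM in delta replicate 6, below the other delta samples, which were at 59.8 to 74.5 FPKM. Socs3 was at 0.147 FPKM in beta replicate 3, below the other beta samples at 0.888 to 0.941 FPKM.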

How the results depend on the processing

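Depth is unknown for 9 samples, so no floor is given for values at 0. With alpha and beta replicates 1 to 4 alone and the replicate number as a block, limma called 0 of 14405 genes (2751 at an unadjusted p under 0.05), 0 members (4, Prlr and Ghr among them), 0 pathway genes (8) and 0 targets (3) in beta against alpha cells; Prlr was at 5.77 (adjusted p = 0.123) and Ghr at 2.25 (adjusted p = 0.13). A replicate block in the fit of all samples kept the 4 member calls (Prlr 5.95 and -6.66, Ghr 2.22 and 1.45) and lost those of Irs2 in beta against alpha (adjusted p = 0.0638) and delta against beta cells (0.0576) and those of Cdkn2c (0.0562) and Tnfrsf11b (0.0689) in delta against alpha cells. Replicate numbers did not pair the samples: same-numbered pairs correlated by -0.152 to 0.281 over genes, and others by -0.352 to 0.339.

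Over the leave-one-out fits, genes called ranged from 698 to 1743 (beta against alpha), 849 to 1195 (delta against alpha) and 1499 to 2703 (delta against beta cells). In that order members called ranged from 2 to 2, 0 to 2 (Ghr at an unadjusted p under 0.05 in each fit with 0; Stat5a added without alpha replicate 5) and 1 to 2, pathway genes from 2 to 6, 0 to 1 and 3 to 7, and targets from 1 to 3, 2 to 5 and 4 to 6. With only 2 cell types, 520 genes and 2 pathway genes were called in beta against alpha cells, and 2 pathway genes in delta against alpha cells; the beta against alpha calls of Lifr, Irs2, Pik3r1 and Pik3ca were lost (adjusted p = 0.141, 0.0953, 0.137 and 0.182), as they were with no filter (0.0622, 0.0626, 0.0674 and 0.0868). Median-ratio scaling and quantile normalization gave 2072 and 2056 genes in beta against alpha cells, 1 and 1 pathway genes in delta against alpha cells, and 3 and 3 members and 9 and 9 pathway genes in delta against beta cells. The scaling moved the median of all genes by 0.18, -0.13 and -0.31 in the 3 comparisons, and the share of calls that were higher from 37%, 78.3% and 79.6% to 52.7%, 67.9% and 51.5% (48.1%, 61.4% and 53.1% with quantiles). A filter at 5 FPKM gave 518 genes and 0 members (Ghr, adjusted p = 0.0532) in delta against alpha cells, 1319 genes and 2 pathway genes in delta against beta cells, and 3 pathway genes and 1 target in beta against alpha cells. No filter gave 2, 1 and 7 pathway genes, and 2 members in delta against beta cells. Without alpha replicate 1 and beta replicate 2 together, 2 pathway genes were called in beta against alpha cells, and the calls of Irs2, Pik3r1 and Pik3ca were lost (adjusted p = 0.0817, 0.107 and 0.16). That fit also lost the calls of Irs2 in delta against beta cells (0.05) and Tnfrsf11b in delta against alpha cells (0.0516). With the sample set as a covariate the beta against alpha calls of Pik3r1 (0.0526) and Pik3ca (0.0661) were lost, and that of Pik3ca also with filters at 5 FPKM (0.0618) and 0.5 FPKM (0.0546). The cause was not tested for any of these.

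No called member changed sign. Of uncalled differences that did, delta against alpha cells ranged in leave-one-out fits from -1.05 to 0.26 for Prlr (0.26 without both samples) and from -0.35 to 0.44 for Socs2 (quantiles -0.15). Beta against alpha cells ranged from -0.04 to 0.46 for Stat5a (-0.02 with the sample set) and from -0.18 to 1.11 for Stat5b (-0.24 without both samples). Delta against beta cells ranged from -0.38 to 0.25 for Jak2, from -0.36 to 0.92 for Stat5b (0.92 without both samples, 0.15 with a pseudocount of 0.1), from -0.28 to 0.66 for Cish (-0.10 with either scaling) and from -0.07 to 0.21 for Socs3 (0 with median ratios, -0.22 with quantiles), and was -0.02 for Stat5a with quantiles.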

Other observations

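The following genes were chosen after their values were seen. Jak1, a JAK kinase of other cytokine receptors, was at 33.5 ± 21.3 FPKM (n = 4) in beta, 15.3 ± 5.83 (n = 6) in delta and 10.2 ± 4.19 (n = 5) in alpha cells, and its difference between beta and alpha cells of 1.5 did not pass the test (limma adjusted p = 0.0703). Its level was above that of Jak2 in the mean of each cell type. Leprot, which encodes a protein that lowers leptin receptors on the cell surface, was at 19.0 ± 12.2 FPKM (n = 5) in alpha, 8.96 ± 6.13 (n = 4) in beta and 16.1 ± 7.70 (n = 6) in delta cells, and its differences did not pass the test (limma adjusted p = 0.377 for beta against alpha cells). Tph1 and Tph2, the serotonin-synthesis enzymes that prolactin induces in beta cells in pregnancy, were listed at 0 in all 5 alpha samples. In beta replicate 2, Tph1 was at 2.43 and Tph2 at 2.3 FPKM, and in the other beta samples they were at most 0.397 and 0.043 FPKM. In delta cells Tph1 was at most 0.309 FPKM, and Tph2 was at 0.241 to 2.58 FPKM in the 6 delta samples.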
